A study of Mus musculus with 96 samples.

Results

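Rhythms with a period of 12 h were measured in mouse ventricle, in all 96 of the 96 RNA libraries of a circadian series. The libraries formed 4 groups of 24, with 2 libraries at each of 12 circadian times (ct) from 18 to 62 h, every 4 h. Every mouse, the vehicle controls included, carried the genotype labelled iCSBmal1 KO, an inducible deletion of Bmal1 that the series places in cardiomyocytes. The groups were vehicle F, vehicle M, tamoxifen F and tamoxifen M, where F and M in the sample names were read as female and male. Tamoxifen induces the deletion, so the drug and the loss of Bmal1 cannot be told apart. No group was treated with tamoxifen without carrying the genotype. The abbreviation ct is taken to be circadian time, and no age or strain was among the labels used here. Since nothing states that each library is from an animal of its own, p-values here reflect library-to-library spread, which may be technical. The RNA was from whole ventricle, in which cells other than cardiomyocytes keep Bmal1, and fewer cells of a type and less RNA per cell cannot be told apart in it.

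The circadian clock is a feedback loop in which BMAL1 and CLOCK bind E-box sequences and switch on the Per and Cry genes, whose proteins repress BMAL1 and CLOCK. Most clock-driven transcripts rise and fall once a day, but some have a second, shorter component that makes a day's rise narrow or gives it a second peak. Transcripts with a 12 h period have been described mainly in mouse liver, for genes of the unfolded protein response, which protects the endoplasmic reticulum (ER) from misfolded proteins, and for heat shock chaperones. Whether such rhythms come from the circadian clock, from feeding or from a separate oscillator has been debated.

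For each gene a curve with a 24 h and a 12 h cosine was fitted to the counts in each group, and only the 12 h terms were tested. The 12 h amplitude is given in log2 units, from the mean to the peak, and its peak is given in hours modulo 12. With sampling every 4 h there are 3 classes of times modulo 12 (hours 2 and 14, hours 6 and 18, hours 10 and 22), each with 8 libraries a group. The 12 h term therefore rests on the differences among those 3 classes, and a 6 h rhythm would look the same. Levels are CPM, counts scaled to a common library total, and hours of the day are ct modulo 24.

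Total counts ran from 8944955 to 20596194 a library. Arntl, the gene for BMAL1, was at 38.6 to 55.7 CPM at hour 2 in vehicle F, 38.7 to 44.6 in vehicle M, 26.8 to 29.3 in tamoxifen F and 25.1 to 32.4 in tamoxifen M. At hour 10 it was at 1.01 to 2.18 CPM in vehicle F and 2.79 to 12.8 in tamoxifen F, which did not overlap, and at 1.32 to 5.97 in vehicle M and 4.95 to 13.8 in tamoxifen M, which did. Its 24 h amplitude was 2.30 in the vehicle hearts and 0.86 in the tamoxifen hearts, each averaged over the sexes. Several libraries stood apart. In 13 libraries the atrial gene Myl7 was above 20 CPM (7 vehicle F, 3 vehicle M, 1 tamoxifen F and 2 tamoxifen M). In 10 vehicle male libraries the share of counts on unconfirmed transcript models (the annotation class TEC) was above the highest share in the other groups, 0.112%. One of the 2 tamoxifen male libraries of ct 54 held 1.31 CPM of Arntl, where its partner held 18.2. One of the 2 tamoxifen female libraries of ct 54 held 0.25 CPM of Xist, a transcript of the inactive X chromosome of females, where the other 47 F libraries held at least 204 CPM. Counts without these libraries are given beside the results they moved or in the closing section on processing.

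The 12 h term was called, at an adjusted p under 0.05 in edgeR's quasi-likelihood test, mainly in the vehicle males. There 331 of 15629 genes were called (2.12% of the genes tested), 4 were called in the tamoxifen males (0.0256%), and 0 in the vehicle females (0%) and the tamoxifen females (0%). At an unadjusted p under 0.05 the shares were 15.4% in vehicle males, 6.87% in tamoxifen males, 3.22% in vehicle females (503 genes) and 3.48% in tamoxifen females (544 genes). DESeq2 called 3.37% of genes in vehicle males, 8 genes in tamoxifen males, 0 in vehicle females and 3 in tamoxifen females, and limma-trend called 350, 0, 0 and 0 in that order. Averaged over the sexes, 41 genes were called in vehicle hearts (0.262%) and 2 in tamoxifen hearts (0.0128%). With the TEC-rich libraries, described above, left out, the order turned, with 8 in vehicle and 11 in tamoxifen hearts. By the same test the 24 h term was called in 8722 genes in the vehicle males, 5492 in their female counterparts, and 1374 (M) and 2771 (F) after tamoxifen.

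The vehicle male count depended on which libraries shared the fit. Fitted on their own 24 libraries, the vehicle males gave 30 genes, 28 of them among the 331, and the vehicle females gave 7. With the 10 TEC-rich vehicle male libraries left out, 1225 genes were called and 196 of the 331 were among them. The 10 include all 4 vehicle male libraries of ct 30 and ct 34. At hour 6 only the ct 54 library low in TEC counts then remained in vehicle males. At hour 10 only the ct 58 library low in TEC counts remained. The vehicle male terms of this fit lean on those libraries, which limits every count given without the TEC-rich libraries. Without the 2 vehicle male libraries of ct 38, 127 genes were called, 114 of them among the 331. The first 24 h alone gave 59 genes and the second 24 h alone gave 6.

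As a comparison, a cosine of another period was put in place of the 12 h term. At 16 h no gene was called in vehicle males, 0 in vehicle females, 9 in tamoxifen females and 1 in tamoxifen males. At 9.6 h the counts were 1, 0, 4 and 0 in the same order. At an unadjusted p under 0.05, however, 12.4% of the genes passed at 9.6 h in vehicle males, close to the 15.4% at 12 h, as the plot of the tested periods shows.

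**Figure D1:**
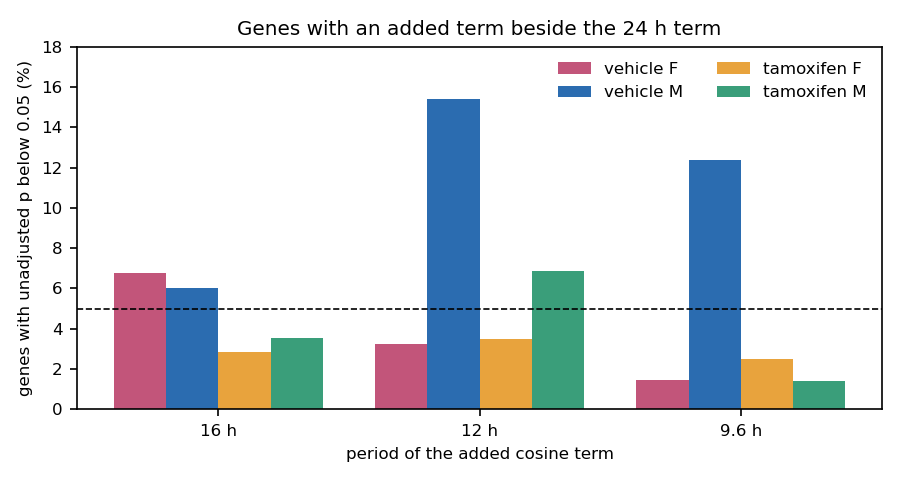
Share of the 15629 tested genes with an unadjusted p under 0.05 (y axis, percent) for a cosine of 16, 12 or 9.6 h added to the 24 h term (x axis), with 1 bar for each group of 24 libraries. The dashed line marks 5%. Vehicle males reach 15.4% at 12 h and 12.4% at 9.6 h, and tamoxifen males reach 6.87% at 12 h.

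Among the 331 genes called in vehicle males the 12 h amplitude was 0.27 at the median and ran from 0.10 to 1.38, against a median standard error of 0.06 over all genes. It was larger than the same gene's 24 h amplitude in 249 of them. The 24 h term was called as well in 219 of the 331 (55.8% of all genes had a called 24 h term in this group). The peaks fell into 2 opposite sets. In 209 genes the 12 h peak lay between 0 and 4 h, near the class of hours 2 and 14, and in 118 it lay between 6 and 10 h.

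In the first set the rise at hour 14 was the main one. Over the 209 genes the median log2 level in vehicle males stood 0.33 above the group mean at hour 14, 0.08 above it at hour 2 and 0.26 below it at hour 22 (pseudocount 0.5 CPM). The highest of the 6 hours was hour 14 in 176 genes, and both hour 2 and hour 14 were above the mean in 157. The 118 genes were the mirror image: their median was 0.36 below the mean at hour 14 and 0.14 below it at hour 2, and both hours were below the mean in 89. These values describe the genes by the libraries that chose them.

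In the other groups, which entered the choice of these genes only through the spread that the 4 groups share in the fit, the median shapes were different. In vehicle females the 209 genes formed a single broad rise, with a median 0.13 above the mean at hour 14, 0.19 at hour 18 and 0.10 at hour 22, and 107 of them were highest at hour 18. Only 10 were above the mean at both hour 2 and hour 14. In tamoxifen females 117 of the 209 were highest at hour 18. In tamoxifen males 100 of them were highest at hour 2, with a median 0.12 above the mean there and 0.18 below it at hour 10. Both hour 2 and hour 14 were above the mean in 65 of the 209 genes in tamoxifen males.

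**Figure D2:**
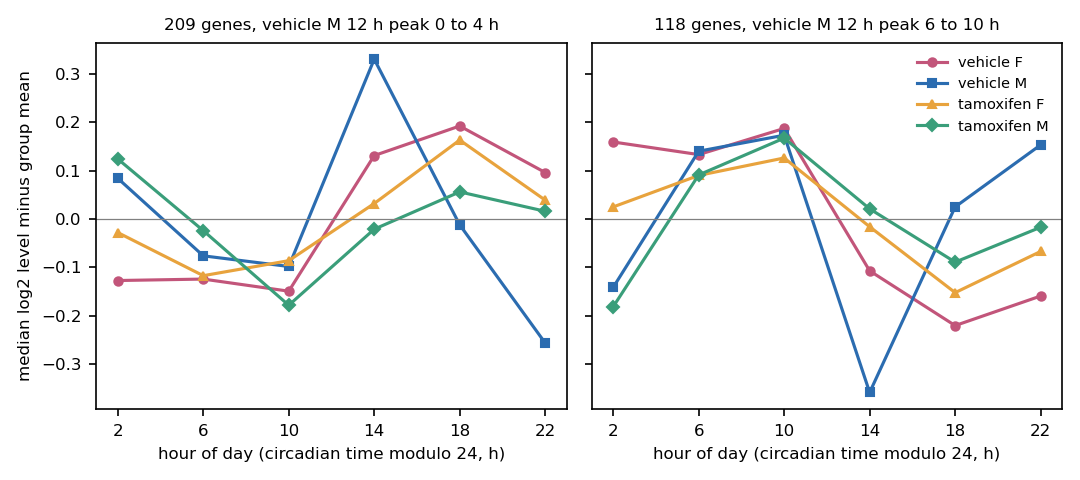
Median log2 level minus the group's own mean (y axis) against hour of day (x axis) for the 209 genes with a vehicle male 12 h peak at 0 to 4 h (left) and the 118 with a peak at 6 to 10 h (right), with 1 line for each group. The vehicle male line turns at hour 14, to 0.33 above and 0.36 below the mean, while the vehicle female line has a single turn at hour 18.

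The timing of the 12 h term was compared between groups that share no library. Of the 331 genes, 269 (81.3%) had a 12 h peak in tamoxifen males within 2 h of that in vehicle males, where 51.8% of all tested genes did. In vehicle females 118 did (35.6%, with 24.9% of all genes), and in tamoxifen females 120 (36.3%, with 25.5% of all genes). The component of the 12 h term at the vehicle male phase was above 0 in 304 of the 331 genes in tamoxifen males (91.8%, with 68.4% of all genes) and in 164 in vehicle females (49.5%, with 39.8% of all genes). The median 12 h amplitude of the 331 was 0.109 in tamoxifen males and 0.0694 in vehicle females, where the medians over all genes were 0.0794 and 0.0718. At an unadjusted p under 0.05, 97 of the 331 passed in tamoxifen males and 12 in vehicle females.

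**Figure D3:**
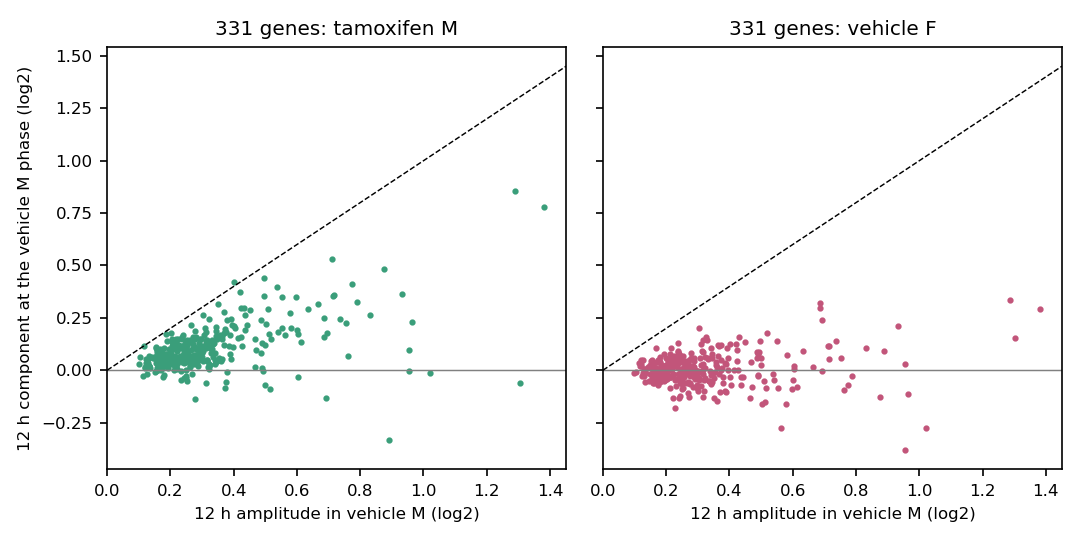
For the 331 genes called in vehicle males, the 12 h component at the vehicle male phase in tamoxifen males (left) and vehicle females (right), in log2 units (y axis), against the 12 h amplitude in vehicle males (x axis). The dashed line is equality and the grey line is 0. In tamoxifen males 304 points lie above 0, and in vehicle females 164.

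Heat shock chaperones refold damaged proteins in the cytosol, with HSP70 and HSP90 at the centre and DNAJ co-chaperones that hand them their clients. Dnaja1 (ENSMUSG00000028410.13, GRCm38 chr4:40722150-40737149, plus strand), a DNAJ co-chaperone of HSP70, was the gene with the smallest p in vehicle males. There it was at 188 to 270 CPM in the 4 libraries of hour 14 and at 109 to 164 CPM at hour 18. It fell to 93.3 to 109 CPM at hour 22, rose again to 118 to 153 CPM at hour 2, and was at 95.1 to 108 CPM at hour 6 and 70.8 to 89.9 CPM at hour 10. The hour 2 libraries did not overlap with those of hours 22 and 6. Dnaja1 was picked by its p in these same libraries, so that separation is in part given by the choice. Its 12 h amplitude in vehicle males was 0.55 ± 0.07 (SE), with a peak at 2.84 h and an edgeR adjusted p of 2.05e-06, and the call held with each of the 12 times left out.

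In vehicle females Dnaja1 had no second rise. It was at 207 to 273 CPM at hour 14 and 183 to 264 CPM at hour 18, and at 83.0 to 97.4 CPM at hour 2, within the range of hours 6 and 10 (75.8 to 106 and 90.4 to 96.3 CPM). Its 12 h amplitude there was 0.14. In tamoxifen males it was at 158 to 226 CPM at hour 2 and 158 to 237 CPM at hour 18, and at 81.7 to 96.1 CPM at hour 10. Tamoxifen males had a 12 h amplitude of 0.39 ± 0.07, with a peak at 3.67 h and an edgeR adjusted p of 0.022, and tamoxifen females 0.08.

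Of the 22 tested genes of a cytosolic heat shock list, 4 were called in vehicle males (2.12% of all genes were), 3 in tamoxifen males (0.0256% of all genes were) and 0 in either female group. Without the 2 vehicle male libraries of ct 38 only Dnaja1 of the 22 was called in vehicle males, so the calls of Hsp90aa1, Chordc1 and Hspa1a were lost. The list's median 12 h amplitude in vehicle males was 0.125 beside 0.10 over all genes, and in vehicle females 0.0623 beside 0.0718. Hsp90aa1, the inducible HSP90, had an amplitude of 0.37 ± 0.07 in vehicle males (adjusted p 0.0010, edgeR). Chordc1, a partner of HSP90, had 0.22 ± 0.05 (adjusted p 0.016, edgeR). Hspa1a, the stress-inducible HSP70, had 1.29 ± 0.28 in vehicle males (adjusted p 0.0079, edgeR) and 1.5 ± 0.26 in tamoxifen males (adjusted p 0.014, edgeR). In vehicle males Hspa1a was at 7.89 to 44.7 CPM at hour 14 and at 3.12 to 6.82 CPM at hour 2, beside 1.02 to 3.66 CPM at hour 22. In tamoxifen males single libraries were far from their partners, with 1.87 to 47.8 CPM at hour 6 and 5.72 to 51.5 CPM at hour 18. Hspa1a and its neighbour Hspa1b are near-identical copies whose reads the counting may have split, so their values are uncertain one by one. All 3 tamoxifen male calls on this list, and the remaining one, Siah2 (a ubiquitin ligase of the hypoxia response), were lost without the libraries above 20 CPM of Myl7, a fit in which 0 genes were called in tamoxifen males.

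Genes of the ER stress response formed the next group. When misfolded proteins gather in the ER, IRE1 (the product of Ern1) splices Xbp1 messenger RNA, and the XBP1 protein then raises genes for ER chaperones and for ER-associated degradation. Of 29 tested genes of this list, 7 were called in vehicle males (2.12% of all genes were) and 0 in each other group. At an unadjusted p under 0.05 15 of the 29 passed in vehicle males (15.4% of all genes did), 2 in tamoxifen males (6.87% of all genes), 2 in tamoxifen females (3.48%) and 0 in vehicle females (3.22%). The 2 of 29 in tamoxifen males are near the share over all genes. The median 12 h amplitude was 0.159 in vehicle males (0.10 over all genes), 0.0505 in vehicle females (0.0718 over all genes) and 0.0794 in tamoxifen males (0.0794 over all genes).

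Edem1, which takes misfolded proteins to degradation, had the smallest p of these, with a vehicle male amplitude of 0.25 ± 0.05, a peak at 2.89 h and an edgeR adjusted p of 7.61e-04. Sdf2l1, an ER co-chaperone, had the largest amplitude, 0.51 ± 0.12, and Creld2, an ER stress-induced protein, had 0.30 ± 0.07. Pdia4, a disulfide isomerase, had 0.25 ± 0.06, Xbp1 0.22 ± 0.05 and Dnajc3, an inhibitor of the ER stress kinase PERK, 0.16 ± 0.04. These 6 genes peaked between 2.51 and 3.18 h. Ern1 ran opposite to them, with an amplitude of 0.25 ± 0.06 and a peak at 8.31 h.

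Xbp1 shows how the groups differed. In vehicle males it was at 84.7 to 107 CPM at hour 2, at 53.5 to 68.3 CPM at hour 10 and at 53.9 to 86.7 CPM at hour 14, and hours 6, 18 and 22 lay between 59.7 and 86.3 CPM. The main rise was at hour 2, and the libraries of hour 14 overlapped with those of every other hour. In vehicle females Xbp1 rose once, from 62 to 70.7 CPM at hour 10 to 91.7 to 134 CPM at hour 22 and 85.1 to 125 CPM at hour 2. In tamoxifen males it was highest at hour 2, at 80.6 to 116 CPM, and the other hours lay between 56.8 and 82.3 CPM. Hspa5, the main ER chaperone BiP, was not called: its vehicle male amplitude was 0.17 ± 0.07 with an adjusted p of 0.34.

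The ER calls rested in part on the 2 vehicle male libraries of ct 38. Without them 1 of the 29 was called, Edem1, and without ct 38 in every group, 0. Without the libraries high in TEC counts 8 were called, 5 of them among the 7, where 7.84% of all genes were called. With the vehicle males fitted alone 1 was called, Sdf2l1. Atf4, the main factor of the integrated stress response, was the single call of 18 tested genes on that list in vehicle males, where 2.12% of all genes were called, with 0.19 ± 0.04 in vehicle males (adjusted p 0.0020, edgeR). Its call held with 11 of the 12 times left out in turn.

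RefSeq promoters (300 bases around a gene's start, mouse build GRCm38.p6) were searched on both strands for the ER stress element, CCAAT and CCACG with 9 bases of any kind between them. It was present in 3 of the 148 genes with a promoter in the set that peaked at 0 to 4 h (2.03%), and in 17 of 11045 tested genes (0.154%). The 3 were Dnajc3, Creld2 and Alg12, the neighbour of Creld2. The promoter windows of Creld2 and Alg12 overlap on opposite strands, and the same element lies in both, so it is counted for each gene. The promoters of Dnajc3 and Creld2 are shown because both genes were called, and that of Hspa5 because it holds the same letters and was not called. Capitals mark the element on either strand.
Dnajc3, chr14:118937682-118937981, plus strand: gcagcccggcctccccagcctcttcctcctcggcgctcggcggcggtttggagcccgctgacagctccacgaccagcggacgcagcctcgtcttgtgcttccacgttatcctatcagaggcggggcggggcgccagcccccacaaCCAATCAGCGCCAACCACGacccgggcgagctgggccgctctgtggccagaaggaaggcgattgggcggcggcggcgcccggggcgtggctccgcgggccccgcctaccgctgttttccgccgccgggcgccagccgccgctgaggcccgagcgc
Creld2, chr15:88819396-88819695, plus strand: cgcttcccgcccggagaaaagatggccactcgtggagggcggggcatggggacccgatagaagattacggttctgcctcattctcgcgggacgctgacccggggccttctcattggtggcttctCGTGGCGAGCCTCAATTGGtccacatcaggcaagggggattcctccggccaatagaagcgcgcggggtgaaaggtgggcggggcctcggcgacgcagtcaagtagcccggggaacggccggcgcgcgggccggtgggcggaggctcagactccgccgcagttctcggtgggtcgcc
Hspa5, chr2:34771840-34772139, plus strand: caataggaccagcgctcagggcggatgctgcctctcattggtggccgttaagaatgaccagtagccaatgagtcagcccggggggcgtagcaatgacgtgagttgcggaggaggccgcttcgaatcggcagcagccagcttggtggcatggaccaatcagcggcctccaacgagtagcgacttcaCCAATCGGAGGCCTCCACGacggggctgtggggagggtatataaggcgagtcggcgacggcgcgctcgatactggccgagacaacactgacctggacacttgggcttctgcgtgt
The promoter entries of Edem1, Xbp1, Sdf2l1, Pdia4 and Ern1 had no match, which says only that these letters are not in those windows. The heat shock element, GAA, TTC and GAA with 2 bases of any kind between each, was in 1 of the 148 genes (0.676%) and in 0.561% of tested genes.

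Immediate early genes, which switch on within minutes of a stimulus, gave 4 calls of 23 tested in vehicle males (2.12% of all genes were), the factors Egr2, Egr3 and Klf4 and the gene Ier5. Egr3 shows what lies under such a call. Of its 4 vehicle male libraries of hour 14, 1 library of ct 38 was at 49.3 CPM, its partner at 3.53 CPM, and the 2 of ct 62 at 1.49 and 2.24 CPM. All other vehicle male libraries were at 0.41 to 3 CPM. The amplitude of 1.30 ± 0.23 thus rested on 1 library, and without that library 2 of the 23 were called, Ier5 and Klf4. Without both vehicle male libraries of ct 38, 0 were called. At an unadjusted p under 0.05, 8 of the 23 passed in vehicle males (15.4% of all genes did), 13 in tamoxifen males (6.87%) and 12 in the tamoxifen average (6.18%), where none was called.

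The summed level of neutrophil markers reached 65.5 CPM among the vehicle male libraries of hours 2 and 14, whose median was 6.16 CPM. It was at most 16.1 CPM at the other hours of that group and at most 8.68 CPM in the other groups. Csf3r and S100a8, 2 of the 3 tested neutrophil markers, were called in vehicle males. Neither was called without the 2 vehicle male libraries of ct 38. Ccl2, a chemokine that draws monocytes, was at 14.9 and 33.7 CPM in those 2 libraries and at 1.34 to 6.39 CPM in the other 22 vehicle male libraries. The part of these signals in the other calls was not tested. In edgeR's test no member of the cardiomyocyte, atrial, endothelial, fibroblast, mural, macrophage, lymphocyte, erythroid, adipocyte, Schwann or skeletal muscle lists was called in any group. With the TEC-rich libraries left out, 2 of 9 tested cardiomyocyte markers and 1 of 7 mural markers were called in vehicle males. No member of the other lists just named was called there, in a fit in which 7.84% of all genes were called.

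In vehicle hearts the 12 h term differed between F and M in 6 genes (0.0384%), by edgeR's test of the difference, and 1957 genes (12.5%) passed at an unadjusted p under 0.05. All the TEC-rich libraries were vehicle male, so sex cannot be told apart here from whatever else sets that group's libraries apart. Dixdc1, a component of Wnt signalling, had the smallest p. In vehicle males it was at 16.7 to 28.6 CPM at hours 6 and 10, fell to 9.34 to 13.4 CPM at hour 14, was at 9.91 to 19.6 CPM at hour 18 and at 13.9 to 20.3 CPM at hour 22, and was low again at hour 2 (7.6 to 15.4 CPM). In vehicle females it was at 18.4 to 30.7 CPM at hour 2, so the sexes did not overlap at that hour. Its 12 h amplitude was 0.51 ± 0.07 in males (peak 8.34 h) and 0.16 in females (peak 1.78 h), and the difference had an amplitude of 0.67 ± 0.10 with an adjusted p of 3.08e-04 (edgeR). This call held without the 2 vehicle male libraries of ct 38, and it was the only one of the 6 that did. It was lost without ct 50.

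Tbc1d4, a regulator of glucose transporter traffic downstream of insulin, fell in vehicle males to 96.8 to 122 CPM at hour 14, below all 20 other libraries of that group (145 to 251 CPM). In vehicle females it was at 150 to 185 CPM at that hour and at 203 to 276 CPM at hour 2. Synj2, a phosphoinositide phosphatase, was low in vehicle males at hours 14 and 2 (59.7 to 73.6 and 64.7 to 83.3 CPM), where vehicle females at hour 2 were at 99.3 to 133 CPM. Gramd1b, which moves cholesterol between membranes, and Pld1, a phospholipase, had opposite 12 h terms in the sexes. Their components at the male phase were 0.23 and 0.27 in males and -0.18 and -0.13 in females. The sixth gene was Ccl2. The count of 6 became 2122 once the TEC-rich male libraries were left out, with all 6 among them, 25 without the libraries high in Myl7, and between 0 and 23 when each time was left out in turn.

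**Figure D4:**
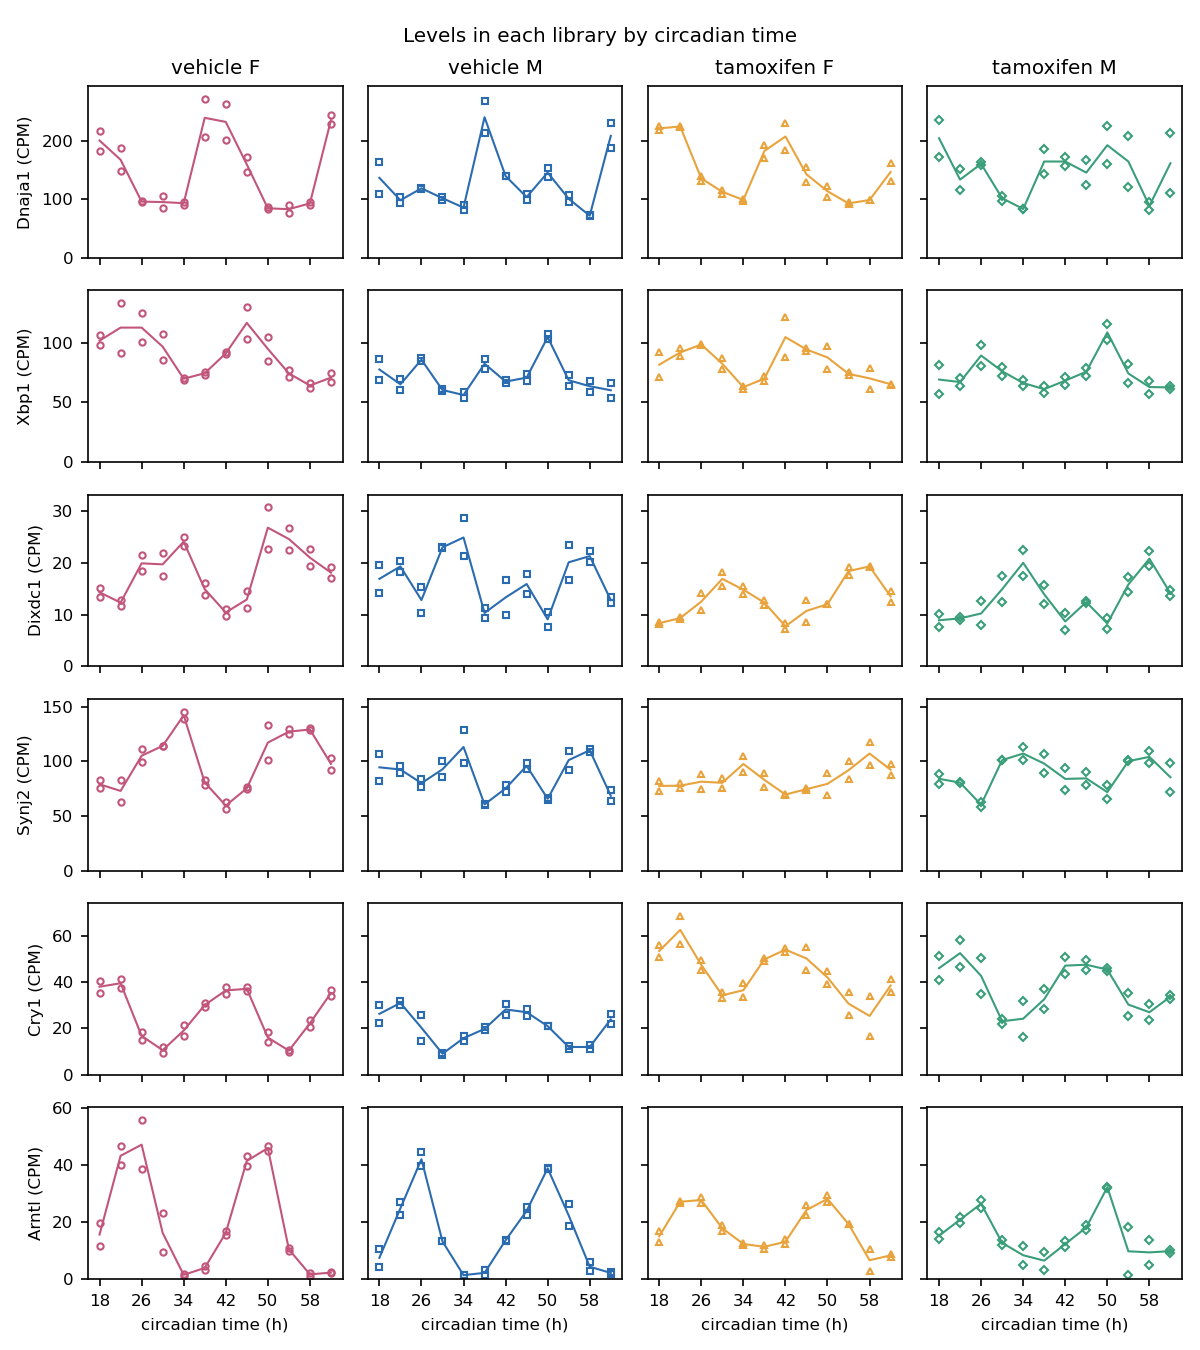
CPM in each library (points) and the mean of the 2 libraries at each time (line) against circadian time in hours (x axis) for 6 genes (rows) in the 4 groups (columns). Vehicle male Dnaja1 has a second, smaller rise at ct 26 and ct 50 (118 to 153 CPM) that vehicle females lack (83.0 to 97.4 CPM).

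In the average of vehicle females and males, 41 genes were called, and 27 of them peaked at 0 to 4 h. Of the 41, 34 were also called in vehicle males (2.12% of all genes were), whose libraries are part of this average. In vehicle females 0 genes were called in the same fit, so a call in the average does not show the term in both sexes. The 24 h term was called in 40 of the 41 (55.6% of all genes had one in this average), and the 12 h term was larger than the 24 h term in 11. Dnaja1 again had the smallest p, with an amplitude of 0.35 ± 0.05 and an edgeR adjusted p of 1.12e-04. Others that peaked near 3 h were Banp, a DNA-binding nuclear protein (0.36 ± 0.06), Siah2 (0.27 ± 0.05), P4ha1, a collagen prolyl hydroxylase (0.24 ± 0.05), Serpinh1, the collagen chaperone HSP47 (0.20 ± 0.04), Xpo1, the main nuclear export receptor (0.15 ± 0.03), and Sfpq, a splicing factor (0.13 ± 0.02).

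Genes of metabolism were called in this average as well. Ppp1r3b, which brings a phosphatase to glycogen, had 0.30 ± 0.07, Slc25a47, a mitochondrial carrier, 0.24 ± 0.05, and Elovl5, which elongates fatty acids, 0.15 ± 0.03. Pfkfb3, which makes an activator of glycolysis, peaked at 9.82 h with 0.25 ± 0.05. Rps6ka5, the kinase MSK1, had the 12 h term farthest above its 24 h term among the genes named here (0.20 ± 0.04 and 0.02). In it the 24 h terms of the sexes ran apart: vehicle males were highest at hour 22 (16.6 to 22.7 CPM) and vehicle females at hour 10 (20.4 to 26.1 CPM).

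The count of 41 fell to 10 without the 2 vehicle male libraries of ct 38, all of them among the 41, and to 8 without those high in TEC counts. Dnaja1, Banp, Bhlhe41, Elovl5, Pfkfb3 and Slc25a47 were among the 10. With each time left out in turn the count ran from 1 (without ct 38, where Dnaja1 alone was called) to 113 (without ct 18). DESeq2 called 73 genes, all 41 among them.

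In the clock genes called in the vehicle average, the 12 h amplitude was below the 24 h amplitude. Of 11 tested repressors, 3 were called in the vehicle average, Bhlhe41, Cry2 and Cry1 (0.262% of all genes were called). Of 12 tested outputs, 2 were called, the transcription factors Hlf and Tef, and of 6 tested activators, 0 (1 at an unadjusted p under 0.05, Arntl, at an adjusted p of 0.081). The 3 repressor calls became 0 with the TEC-rich libraries left out, 0 without ct 38 and 1 (Bhlhe41) without the vehicle male pair of ct 38, and the 2 output calls became 0 in each of these fits and without the libraries high in Myl7. Bhlhe41, a repressor of clock activators, was at 69.0 to 76.0 CPM at hour 10 in vehicle females, and hours 18 to 2 were at 25.6 to 37.7 CPM. In vehicle males it was at 54.9 to 73.2 CPM at hour 10 and at 18.2 to 51.0 CPM at hours 18 to 2. Hour 10 thus stood above hours 18 to 2 in all libraries of both groups, which a 24 h term alone could also give. The vehicle 12 h amplitude of Bhlhe41 was 0.22 ± 0.04 with a peak at 9.02 h, beside a 24 h amplitude of 0.50.

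Cry1, a repressor that acts late in the cycle, was at 36.1 to 41.5 CPM at hour 22 in vehicle females and had dropped to 13.9 to 18.5 CPM by hour 2, a fall steeper than its rise from hour 6 (9.40 to 11.8 CPM) to hour 18 (34.8 to 40.6 CPM). In vehicle males hour 2 was at 14.8 to 25.8 CPM. Its vehicle 12 h amplitude was 0.22 ± 0.05, that of Cry2 0.16 ± 0.03, of Hlf 0.24 ± 0.05 and of Tef 0.24 ± 0.05. Their 24 h amplitudes were 0.79, 0.36, 0.76 and 0.94. Cry1 and Bhlhe41 were also 2 of the 7 genes called in vehicle females fitted alone, with amplitudes of 0.29 and 0.25, and the others were Zbtb16, Tspan2, Cd55, Wipf3 and Gask1b, named after their values were seen. Per1, in which the 12 h term was called in vehicle males alone (0.60 ± 0.15, peak 9.33 h, adjusted p 0.031, edgeR), was at 7.85 to 12.2 CPM at hour 2 there and at 15.2 to 39.0 CPM in vehicle females.

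The E-box CACGTG, to which BMAL1 and CLOCK bind, was in the RefSeq promoters of 6 of the 30 genes of the vehicle average that had an entry (20%), beside 1272 of 11045 tested genes (11.5%): Bhlhe41, Cry1, Tef, Pfkfb3, Elovl5 and Nle1. It was in 18 of 90 genes of the vehicle male set that peaked at 6 to 10 h (20%) and in 13 of 148 of the set that peaked at 0 to 4 h (8.78%). The promoters of Bhlhe41, Cry1 and Pfkfb3 are shown, 3 of these 6 genes, with vehicle 12 h peaks between 9.02 and 11.53 h. They were picked among genes that hold the E-box. Synj2 (9.07 h) and Rps6ka5 (9.26 h), named above with vehicle peaks in the same range, had no E-box in their RefSeq promoters. Capitals mark the E-box.
Bhlhe41, chr6:145865371-145865670, minus strand: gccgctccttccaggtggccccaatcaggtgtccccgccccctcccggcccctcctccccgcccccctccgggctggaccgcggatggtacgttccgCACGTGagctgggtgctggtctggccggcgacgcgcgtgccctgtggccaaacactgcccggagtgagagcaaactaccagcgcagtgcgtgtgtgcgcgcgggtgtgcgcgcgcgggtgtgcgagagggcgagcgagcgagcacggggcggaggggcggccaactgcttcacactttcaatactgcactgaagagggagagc
Cry1, chr10:85185005-85185304, minus strand: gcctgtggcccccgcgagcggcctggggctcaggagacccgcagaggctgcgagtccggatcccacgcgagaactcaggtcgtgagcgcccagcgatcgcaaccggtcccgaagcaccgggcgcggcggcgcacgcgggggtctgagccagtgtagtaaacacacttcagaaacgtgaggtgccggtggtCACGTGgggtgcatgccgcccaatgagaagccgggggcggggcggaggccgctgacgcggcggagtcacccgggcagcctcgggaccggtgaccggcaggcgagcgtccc
Pfkfb3, chr2:11502041-11502340, minus strand: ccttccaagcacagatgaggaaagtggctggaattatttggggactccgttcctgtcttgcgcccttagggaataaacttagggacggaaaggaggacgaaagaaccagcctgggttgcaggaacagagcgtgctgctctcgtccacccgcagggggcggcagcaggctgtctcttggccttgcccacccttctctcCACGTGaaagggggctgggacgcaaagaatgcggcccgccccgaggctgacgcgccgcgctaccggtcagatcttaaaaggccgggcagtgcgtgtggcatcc
The Pfkfb3 entry is one of 2 start sites in RefSeq, and the other held no E-box.

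Whether the 12 h term depends on Bmal1 was asked by its difference between tamoxifen and vehicle hearts. No gene was called in edgeR's test of that difference, averaged over the sexes (0%), in females (0%) or in males (0%), nor in the interaction of sex and tamoxifen (0%). At an unadjusted p under 0.05 there were 456 genes (2.92%) for the average, 182 for females, 624 (3.99%) for males and 307 for the interaction. DESeq2, limma-trend and limma-voom called 0 genes for the average, as for each sex. Leaving out the libraries high in Myl7 gave 1 gene for the average, and leaving out ct 62 gave 2 for males. The median standard error of a gene's difference was 0.0623 in the average, and the median vehicle amplitude of the 41 called genes was 0.242.

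In the tamoxifen hearts, whose libraries entered the choice of these genes only through the shared spread, 38 of the 41 genes had a 12 h peak within 2 h of that in vehicle hearts (92.7%, with 41.3% of all genes). The component at the vehicle phase was above 0 in 39 of the 41 (95.1%, with 59.2% of all genes). The median 12 h amplitude was 0.136, beside 0.0509 over all genes, and 24 of the 41 passed at an unadjusted p under 0.05 (6.18% of all genes did, and 8.07% in the vehicle average). The sexes differed in this. In tamoxifen males 38 of the 41 peaked within 2 h (92.7%, with 42.2% of all genes), and in tamoxifen females 22 (53.7%, with 35.3%). At an unadjusted p under 0.05, 24 of the 41 passed in tamoxifen males (6.87% of all genes did) and 3 in tamoxifen females (3.48%). Since the genes were chosen for a large vehicle term, a smaller value after tamoxifen is in part given by that choice, and the intervals below are unadjusted 95% intervals for the tamoxifen minus vehicle difference at the vehicle phase.

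In Siah2 the component was 0.27 in vehicle and 0.24 in tamoxifen hearts (interval -0.18 to 0.11), and in Pfkfb3 0.25 and 0.24 (interval -0.16 to 0.13). Pfkfb3 was highest at hour 10 in all 4 groups, at 19.7 to 28.8 CPM in vehicle females, 24.7 to 32.2 in vehicle males, 27.7 to 32.4 in tamoxifen females and 20.9 to 33.7 in tamoxifen males. In Dnaja1 the component was 0.35 and 0.20 (interval -0.28 to -0.0014). In Xpo1 it was 0.15 and 0.02 (interval -0.21 to -0.04), in P4ha1 0.24 and 0.06 (interval -0.31 to -0.05) and in Rps6ka5 0.20 and -0.01 (interval -0.34 to -0.09). These differences had unadjusted p of 0.014, 0.012 and 0.0033 in edgeR and an adjusted p of 1 each.

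In Arntl, whose deletion tamoxifen induces, the 12 h component was 0.44 ± 0.10 in vehicle hearts and -0.01 at that phase in tamoxifen hearts (interval -0.73 to -0.17, unadjusted p 0.0056, edgeR, adjusted p 1). In vehicle hearts Arntl was near its floor at hour 10, at 1.01 to 2.18 CPM in females, and its rise was narrow, with 9.41 to 23 CPM at hour 6. In Cry1 the component was 0.22 and 0.02 (interval -0.33 to -0.07), and tamoxifen also lifted its trough, from 9.40 to 11.8 CPM at hour 6 in vehicle females to 25.9 to 35.7 CPM in tamoxifen females. In Cry2 it was 0.16 and 0.05 (interval -0.20 to -0.03), in Tef 0.24 and 0.07 (interval -0.31 to -0.02) and in Bhlhe41 0.22 and 0.11 (interval -0.22 to 0.01). Per3 and Ciart, both repressors, had components of 0.23 and 0.21 (interval -0.27 to 0.24) and 0.45 and 0.49 (interval -0.38 to 0.47), with wide intervals. Neither was called in either average. The 24 h amplitudes of Cry1, Cry2, Tef and Bhlhe41 were also smaller after tamoxifen, at 0.49, 0.19, 0.66 and 0.29. The tamoxifen averages of this paragraph include the tamoxifen male library of ct 54 that held 1.31 CPM of Arntl, where its partner held 18.2. Per2 was at 87 CPM in that library and at 8.59 CPM in its partner. Clock values without that library are not given here.

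**Figure D5:**
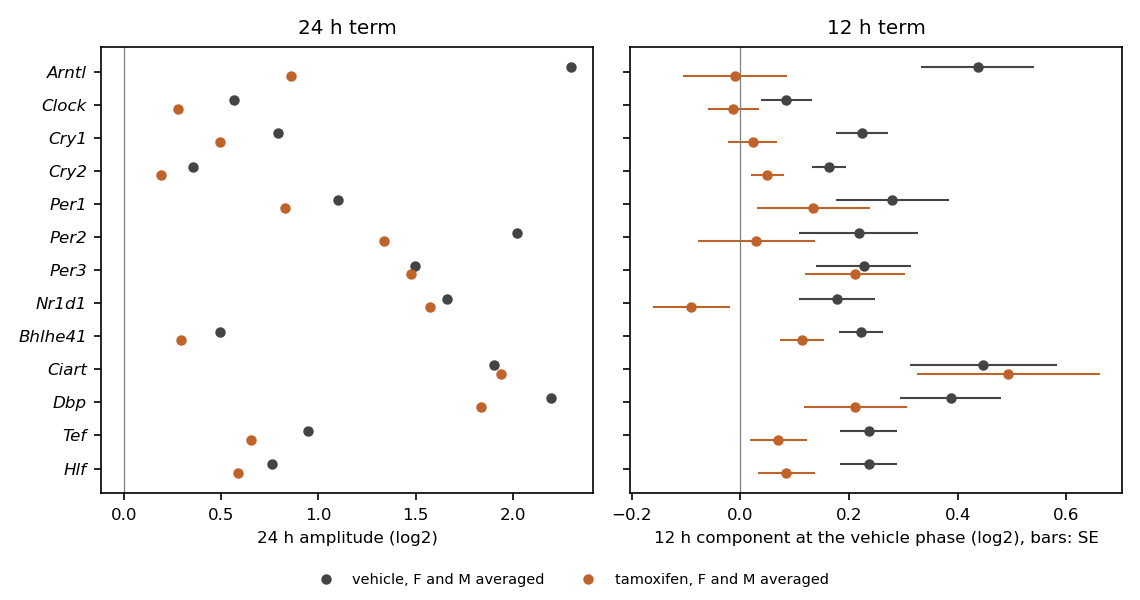
The 24 h amplitude (left) and the 12 h component at the vehicle phase (right), in log2 units on the x axes, for 13 clock genes (rows) in vehicle and tamoxifen hearts, each averaged over F and M. Bars in the right panel are standard errors. The Arntl component goes from 0.44 to -0.01, and those of Per3 and Ciart lie within their errors. The tamoxifen averages include the ct 54 libraries that went against their labels.

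Only 2 genes were called in the tamoxifen average, Ankrd9 and Tgfb2, the gene of a growth factor of the TGF-beta family. The mean level of Tgfb2 was lowest at hour 14 in all 4 groups, where it was at 8.26 to 10.7 CPM in tamoxifen females, 6.71 to 10.8 in tamoxifen males, 7.16 to 9 in vehicle females and 8.11 to 12.2 in vehicle males. Its 12 h amplitude was 0.25 ± 0.05 in tamoxifen hearts (adjusted p 0.049, edgeR) and 0.15 ± 0.05 in vehicle hearts (adjusted p 0.35, edgeR). Ankrd9, which codes for an ankyrin repeat protein, had 0.22 ± 0.04 after tamoxifen (adjusted p 0.049, edgeR) and 0.14 ± 0.04 in vehicle hearts. Both calls were lost in limma-voom, in the fits with other scaling and without the libraries high in Myl7.

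In vehicle males, where 2.12% of all genes were called, 2 of 16 glucocorticoid target genes were called (Per1 and Klf9, a Krüppel-like factor), and 1 each of 18 cold-inducible and splicing-linked genes (Srsf7, a splicing factor), 20 fasting genes (Ucp3, a mitochondrial uncoupling protein) and 20 insulin and glucose genes (Pik3ip1, an inhibitor of PI3 kinase). Ucp3 had the largest term of these, 0.77 ± 0.15 with a peak at 8.40 h, and 0.58 ± 0.15 in tamoxifen males. No gene was called in vehicle males among 30 of ER to Golgi transport, 23 of nuclear OXPHOS, 13 encoded in mitochondria, 24 of mRNA splicing, 19 of the proteasome and 20 cardiac ion channels, where 1, 0, 1, 2, 1 and 2 passed at an unadjusted p under 0.05 in edgeR's test (15.4% of all genes did). With the TEC-rich libraries left out, when 7.84% of all genes were called, these lists gave 6, 1, 0, 1, 2 and 3 calls in the same order, and the cold-inducible list gave 8 of 18, the fasting list 3 and the insulin list 3.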

How the data were processed

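The deposited values were raw counts per gene and library, made by the authors with HISAT2, Picard and HTSeq on GRCm38/mm10, per the submitters' processing notes, which give no role or order. All 96 columns were mapped to samples by name. Of 55376 genes, 15629 passed edgeR's filter (minimum count 10). One model over the 4 groups (R 4.3.3, edgeR 4.0.16, TMM scaling, quasi-likelihood test, Benjamini-Hochberg adjustment over all tested genes) held a mean and the cosine and sine of 24 h and of 12 h for each group, 20 coefficients with 76 residual degrees of freedom. The 12 h pair was tested in each group, in the averages over the sexes and in the differences. Alternatives used limma 3.58.1 and DESeq2 1.42.0, other scalings and filters, and libraries or times left out. The code was tested on simulated data. The 2 libraries of a time differed by more than sampling noise in all 48 pairs.

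Named by rule were the genes with the smallest p or the largest 12 h amplitude in each comparison, those whose 12 h term exceeded the 24 h term in the averages, and clock and ER stress genes, at a mean of at least 5 CPM where chosen by p or size. Other called list members were named after their values were seen. The members and lists were chosen with earlier results of these data known. CPM values are TMM-scaled counts.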

Additional observations from a re-analysis of the deposited data

Results flagged for a closer look

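In 6 genes the 12 h term differed between F and M vehicle hearts by edgeR's test of the difference itself, adjusted over all tested genes. The difference had a 12 h amplitude of 1.302 in Ccl2 (adjusted p 0.0143), 0.6657 in Dixdc1 (adjusted p 3.08e-04), 0.4063 in Gramd1b (adjusted p 0.0116), 0.4029 in Pld1 (adjusted p 0.0302), 0.3675 in Synj2 (adjusted p 0.0116) and 0.3235 in Tbc1d4 (adjusted p 0.0143). Without the 2 vehicle male libraries of ct 38, in which Ccl2 was highest in that group, Dixdc1 alone was called. The part of those libraries' cell content in the other 5 was not tested. Since all the TEC-rich libraries were vehicle male, sex cannot be told apart from whatever else sets that group's libraries apart.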

How the results depend on the processing

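No called gene named in the text had its 12 h term turned to the opposite phase in any alternative run, and the counts have no direction. The order of the averages did turn, from 41 in vehicle and 2 in tamoxifen hearts to 8 and 11 without the TEC libraries. The vehicle male share of 2.12% of tested genes (331) became 3.54% on CPM without a log, 3.37% in DESeq2, 3.43% with a mean for each time, 7.84% without the libraries high in TEC counts, 0.512% when each group was also fitted alone, 0.192% with each group fitted alone, 0.813% without both vehicle male libraries of ct 38, 0.378% and 0.0384% in the first and second 24 h, and 0.640% and 4.34% at adjusted p under 0.01 and 0.1. Vehicle females gave 7 fitted alone, 7 fitted alone without the TEC libraries (which are all vehicle male, so this is the same fit) and 1 with a mean for each time, and 0 without the TEC libraries in the joint fit. Tamoxifen females gave 3 in DESeq2. The 4 genes of tamoxifen males became 0 in limma-trend, limma-voom, CPM without a log, each group alone with or without the TEC libraries, without the Myl7 libraries, in either 24 h and at 0.01, 8 in DESeq2, 13 with a mean for each time and 7 with an 8 h term. The vehicle average of 41 became 73 in DESeq2, 64 with a mean for each time, 8 without the TEC libraries, 10 without the ct 38 pair, 2 and 0 in the first and second 24 h, and 12 and 69 at 0.01 and 0.1. The tamoxifen average of 2 became 0 in limma-voom, with library size alone, DESeq2 size factors or a filter of 96 counts in all, in either 24 h and at 0.01. It became 6 on CPM without a log, 15 in DESeq2, 14 with a mean for each time, 7 with an 8 h term, 1 without the Myl7 libraries, 11 without the TEC libraries and 11 without the 2 ct 54 libraries that went against their labels. The tamoxifen minus vehicle difference gave 1 gene without the Myl7 libraries. The 6 genes that differed between F and M became 28 on CPM without a log, 74 with a mean for each time, 25 without the Myl7 libraries, 2122 without the TEC libraries, 13 without the 2 ct 54 libraries, 0 and 2 in the first and second 24 h, 1 without the ct 38 pair, and 1 and 45 at 0.01 and 0.1. The cause of these moves was not tested, beyond the smaller number of libraries in some fits.

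With each time left out in turn, the vehicle male share ran from 0.659% (without ct 38) to 7.45% (without ct 42), and the counts from 0 to 0 in vehicle females, 0 to 5 in tamoxifen females, 0 to 7 in tamoxifen males, 1 to 113 in the vehicle average, 0 to 12 in the tamoxifen average, 0 to 23 for F minus M, 0 to 2 for tamoxifen minus vehicle in males, and 0 to 0 for that difference in females, averaged, and for the interaction. The ct 38 pair, the Egr3 library, the 96-count filter and the TEC libraries with each group alone were chosen after seeing the data. The fit without any filter was not run, since edgeR could not be fitted. No paired analysis was possible because the library numbers are not shared between groups. Small 12 h terms, under about 0.1, were not detectable at a median standard error of 0.0628 in vehicle males.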
